A study of Mus musculus with 6 samples.

Results

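The basement membrane genes described here are 6 laminin chains (Lama2, Lama4, Lama5, Lamb1, Lamb2 and Lamc1), the nidogens Nid1 and Nid2, the perlecan gene Hspg2 and the agrin gene Agrn. They were chosen by symbol, and all 10 were found among the 18810 genes of the table. RNA was sequenced from atrioventricular canal regions, dissected to hold the mitral, tricuspid and aortic valves, of 3 Scx-/- and 3 Scx+/+ littermate embryos of the C57BL/6 strain at embryonic day 15.5. The Scx-/- embryos are null for the gene of the transcription factor Scleraxis, the controls carry its wild-type alleles, and no treatment is listed for either genotype. Values are RPKM, reads scaled to exon length and to library depth, so that levels can be compared between genes. The study aimed for little myocardium in the dissection, and valve cells were not sorted from the rest of the tissue. Nothing in the sources used here says that the 3 libraries of a genotype came from separate litters, and p-values measure the spread between these libraries.

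A basement membrane is a thin sheet of matrix under epithelia and endothelia and around muscle cells. Laminins are secreted as trimers of an alpha, a beta and a gamma chain and polymerise on the cell surface, where integrins and dystroglycan hold them. Nidogens link the laminin network to that of collagen IV. Perlecan and agrin are large heparan sulfate proteoglycans that bind both networks, growth factors and dystroglycan. In the heart such sheets lie beneath the endocardium that covers the valves and surround each cardiomyocyte and smooth muscle cell.

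Depth, recovered from RPKM and exon length, was 46429970 to 68570996 reads per library. Over the whole gene, Scx lay between 18.6 and 82.9 RPKM in Scx-/- and between 26.0 and 58.3 RPKM in Scx+/+. The genotypes thus overlapped, and the value does not check the labels, since the table gives none for a part of the gene. Summed over all genes, RPKM was 2295480 in Scx+/+ replicate 2 and 820019 to 1240390 in the other 5 libraries. Of 12 markers of valve mesenchyme, 11 were in the table, led by Postn, whose mean RPKM was 299 in Scx-/- and 209 in Scx+/+, and Col2a1 is not in the table. All 12 cardiomyocyte markers were present, led by Myl2 with means of 8958 and 7948 RPKM, so the dissected regions held heart muscle as well as valve. In such bulk tissue, fewer cells of a type and less RNA per cell cannot be told apart.

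Transcripts of all 10 genes were measured in every library, from 280 reads (Lama5 in Scx+/+ replicate 2) to 32688 reads (Lamb1 in Scx+/+ replicate 3). Lamb1, the widely expressed beta chain, had the highest mean over the 6 libraries at 42.0 ± 8.35 RPKM (SD, n = 6), followed by Lama4, the alpha chain of blood vessel and endocardial laminins, at 34.3 ± 6.50 RPKM (SD, n = 6) and Lamc1, the common gamma chain, at 31.2 ± 8.86 RPKM (SD, n = 6). The nidogens came next, Nid1 at 20.6 ± 4.50 RPKM (SD, n = 6) and Nid2 at 13.4 ± 4.43 RPKM (SD, n = 6). Lama2, the alpha chain of muscle laminins, had a mean of 9.92 RPKM and Lamb2, the beta chain enriched in mature muscle and vessel laminins, of 7.91 RPKM. The proteoglycans were lower per length, Agrn at 4.69 RPKM and Hspg2 at 3.04 RPKM. Lama5, the alpha chain typical of epithelial and mature vessel laminins, was lowest at 0.847 RPKM. Ranked among all genes by mean RPKM, the 10 genes spanned the 23.6th (Lama5) to the 90.1st (Lamb1) percentile.

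**Figure D1:**
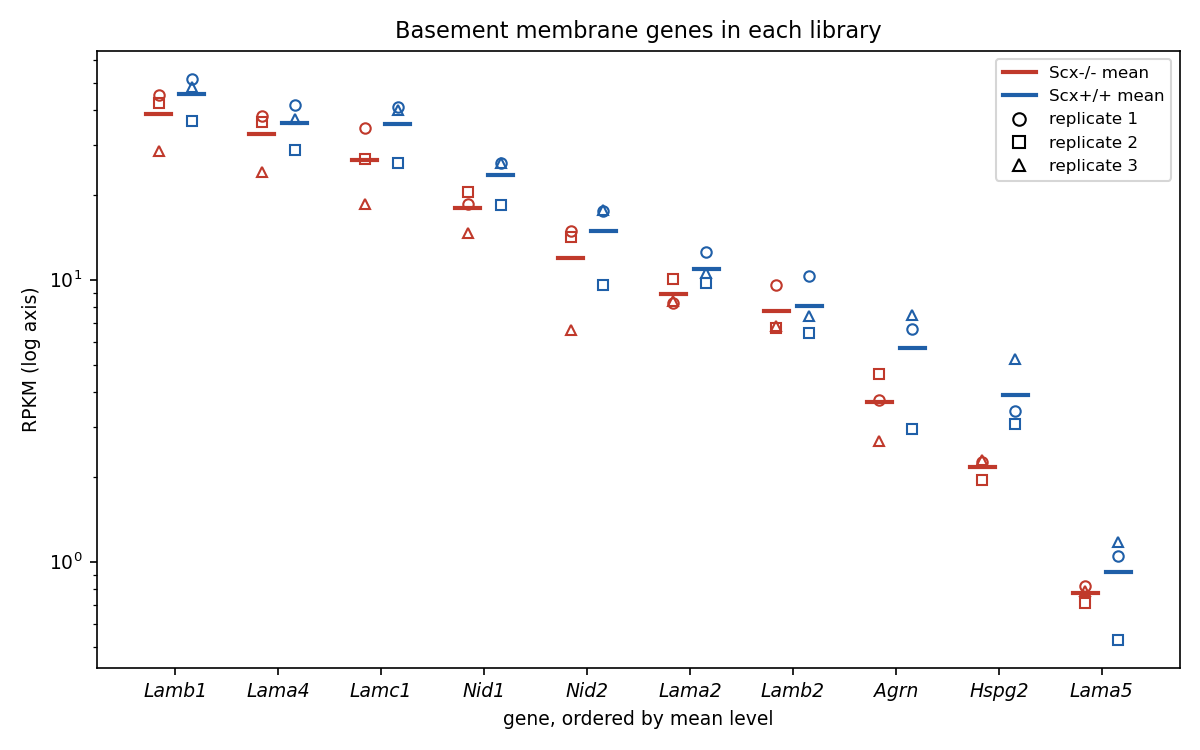
RPKM (log axis) of the 10 genes, ordered by mean level, in each Scx-/- (red) and Scx+/+ (blue) library. Points are libraries, with a symbol for each replicate number, and bars are genotype means (n = 3). The genotypes overlapped for every gene but Hspg2, whose Scx-/- libraries lay at 1.94 to 2.29 RPKM and Scx+/+ libraries at 3.09 to 5.22 RPKM.

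The order of the levels was compared between neighbours within each library. Neighbours and their order were taken from the means of these same libraries, so the p-values are no independent test of the order. Lamb1 was above Lama4, Lamc1 above Nid1, Nid1 above Nid2 and Hspg2 above Lama5 in 6 of 6 libraries (exact permutation test over sign flips, two-sided, p = 0.03125 for each, the smallest that 6 libraries allow, and adjusted p = 0.0703 over the 9 neighbours). For the other 5 neighbours the order differed between libraries. Lama4 was above Lamc1 in 5 of 6 libraries, with a ratio of 0.929 to 1.35, and Nid2 above Lama2 in 4 of 6, with a ratio of 0.794 to 1.79. Lama2 was above Lamb2, Lamb2 above Agrn and Agrn above Hspg2 in 5 of 6, with mean log2 ratios of 0.33 ± 0.30, 0.82 ± 0.53 and 0.59 ± 0.47 (SD, n = 6). For Lama4 and Lamc1 the mean log2 ratio, 0.17 ± 0.21 (SD, n = 6), was within its spread. None of the 9 neighbours passed the adjusted threshold of 0.05.

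The chains were then added up by role. The summed alpha chains were 1.22 to 1.79 times the level of Lamc1 in the 6 libraries, the summed beta chains 1.39 to 1.90 times and the nidogens together 0.971 to 1.30 times. Perlecan and agrin together reached 0.175 to 0.316 times the level of Lamc1. These are ratios of transcript levels per length and not of protein. Summed over the 10 genes, RPKM was 175.9, 163.8 and 113.6 in Scx-/- and 211.5, 142.0 and 200.8 in Scx+/+. The genotypes overlapped in this sum. The Scx-/- mean of perlecan and agrin together was 5.85 ± 0.815 RPKM (SD, n = 3), beside a Scx+/+ mean of 9.62 ± 3.35 RPKM (SD, n = 3), and the exact permutation p over the roles was 0.2 to 0.5 (two-sided), in a design that cannot go below 0.1.

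To ask how the genes respond to the loss of Scleraxis, Scx-/- was compared with Scx+/+ across all 18810 genes with limma on log2(RPKM + 0.1), with Hspg2 the only one of the 10 genes at an unadjusted p below 0.05. Of all genes, 3.89% were called at that threshold, 1.06% as lower and 2.82% as higher in Scx-/-. After Benjamini-Hochberg adjustment over all genes, 0 of the 18810 genes and 0 of these 10 were below 0.05 in limma (731 and 1 at the unadjusted threshold), while an unmoderated linear model put 1 gene, none of the 10, below it. Their adjusted p from limma ran from 0.967 to 0.995. The log2 fold change was below 0 for all 10 genes, with a median of -0.32 and a range of -0.79 (Hspg2) to -0.05 (Lamb2), for 9 of 10 after removal of the dependence on exon length and GC, and for 7 to 10 of them with any 1 library left out. Over all genes tested it was below 0 for 36.2%, with a median of 0.10. Setting the median of each library to 0 moved the median of the 10 genes to -0.43, and the share of called genes that were lower from 27.4% to 56.5%. With that scaling, which called 1.94% of all genes as lower and 1.49% as higher, Nid1 was called beside Hspg2. After removal of the dependence on exon length and GC, with 1.94% called lower and 1.6% higher, Lamc1 and Nid1 were called and Hspg2 was not. Hspg2 alone was called after quantile normalization (1.88% of all genes lower, 1.87% higher), in an unmoderated linear model (1.18% and 3.42%) and with the table limited to a mean of at least 1 RPKM (0.955% and 3.15%). The 10 genes vary together between libraries, so their shared sign is not 10 separate observations.

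**Figure D2:**
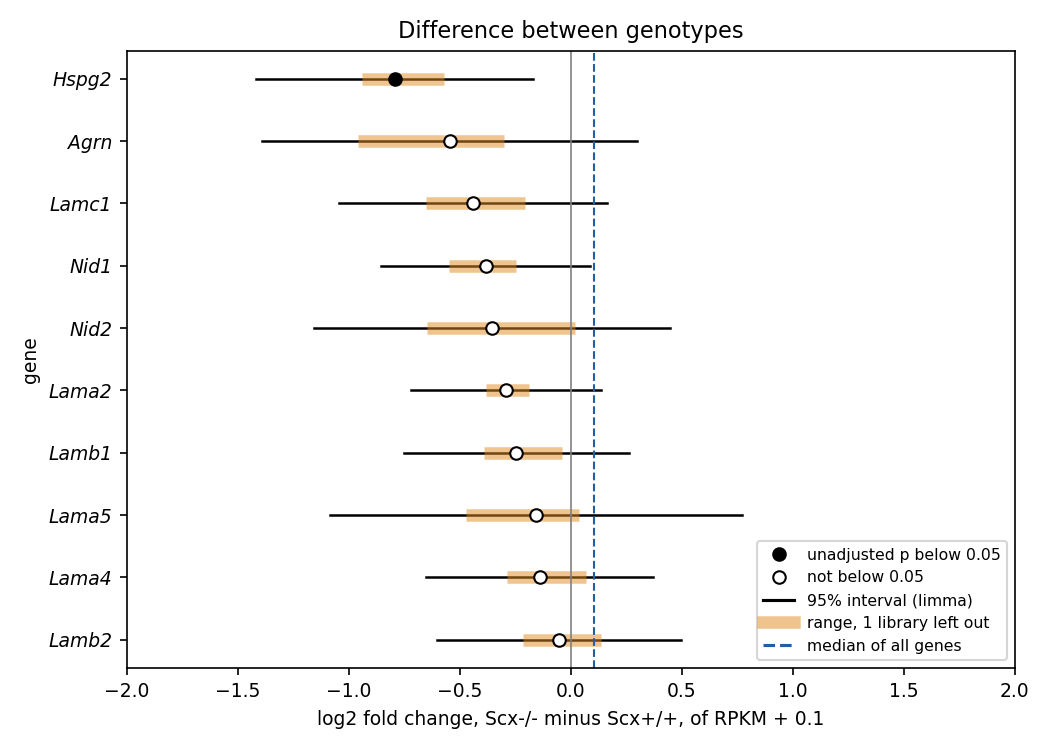
Log2 fold change of RPKM + 0.1, Scx-/- minus Scx+/+, for each of the 10 genes, with limma's 95% interval (black line) and the range over the 6 fits that each leave out a library (orange). The filled point, Hspg2, is at an unadjusted p below 0.05, and the dashed line marks the median of all genes at 0.10.

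Hspg2 encodes perlecan, a proteoglycan of nearly all basement membranes and of cartilage. In mm9 the gene (ENSMUSG00000028763) spans bases 137024634 to 137126545 of chromosome 4, plus strand, with 14357 bases of exon at 60.9% GC. The Scx-/- libraries, in the order of their replicate numbers, held 2.26, 1.94 and 2.29 RPKM (1701, 1868 and 1961 reads). The Scx+/+ libraries held 3.43, 3.09 and 5.22 RPKM (2955, 2060 and 5137 reads). No Scx-/- library reached the lowest Scx+/+ library, and Scx+/+ replicate 3 stood above the rest. Of all genes, 9.5% had genotypes that did not overlap, and 2.31% did so with Scx-/- lower. The log2 fold change was -0.79 (95% interval -1.42 to -0.17), or 0.577 of the Scx+/+ level (0.375 to 0.890), with an unadjusted p = 0.0184 and an adjusted p = 0.967 from limma. Without Scx-/- replicate 2 the call was lost, with a log2 fold change of -0.72 and an unadjusted limma p of 0.065. It was lost as well without Scx+/+ replicate 3, at -0.57 with a limma p of 0.0557, and after removal of the dependence on exon length and GC, at -0.58 with a limma p of 0.0568.

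Agrn (ENSMUSG00000041936, chromosome 4 of mm9 from 155539399 to 155571536, minus strand) encodes agrin, which is best known for gathering acetylcholine receptors at the nerve-muscle synapse. It was 3.76, 4.62 and 2.67 RPKM in Scx-/- and 6.69, 2.95 and 7.47 RPKM in Scx+/+, always given for replicates 1, 2 and 3. Scx+/+ replicates 1 and 3 were above all Scx-/- libraries, whereas Scx+/+ replicate 2 fell among them. The log2 fold change was -0.55 (95% interval -1.39 to 0.30, unadjusted p = 0.178 from limma). Without Scx+/+ replicate 2 it was -0.96 (unadjusted p = 0.0122 from limma), and without Scx+/+ replicate 3, Scx-/- replicate 3 or Scx+/+ replicate 1 it was -0.30, -0.34 and -0.38. The ratio of Hspg2 to Agrn within a library was 0.433 to 0.861 in Scx-/- and 0.519 to 1.05 in Scx+/+, so the proteoglycans did not differ from each other in their response beyond the spread (log2 difference -0.25, exact permutation test, two-sided, p = 0.6, where 3 libraries against 3 cannot go below 0.1).

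Lamc1 (ENSMUSG00000026478, chromosome 1 from 155066052 to 155179916, minus strand) is the gamma chain of most laminins. It was 34.4, 26.7 and 18.6 RPKM in Scx-/- and 41.1, 26.0 and 40.1 RPKM in Scx+/+. Scx+/+ replicate 2 lay below 2 of the Scx-/- libraries, and the log2 fold change was -0.44 (95% interval -1.04 to 0.16, unadjusted p = 0.134 from limma). Without Scx+/+ replicate 2 it was -0.65 with an unadjusted limma p of 0.0466, and without Scx-/- replicate 3 it was -0.21 with a limma p of 0.466.

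Among the alpha chains, Lama2 (ENSMUSG00000019899, chromosome 10 from 26701094 to 27336748, minus strand), whose loss causes a congenital muscular dystrophy, was 8.26, 10.1 and 8.40 RPKM in Scx-/- and 12.6, 9.70 and 10.5 RPKM in Scx+/+. Only Scx-/- replicate 2 and Scx+/+ replicate 2 were out of order, and the log2 fold change was -0.29 (95% interval -0.72 to 0.14). Lama4 (ENSMUSG00000019846, chromosome 10 from 38685321 to 38829994, plus strand) was 38.2, 36.1 and 24.1 RPKM in Scx-/- and 41.5, 28.8 and 37.2 RPKM in Scx+/+. Scx-/- replicate 3 and Scx+/+ replicate 2 were its lowest libraries, and its log2 fold change of -0.14 (95% interval -0.65 to 0.37) turned to 0.067 without Scx-/- replicate 3. Lama5 (ENSMUSG00000015647, chromosome 2 from 179911078 to 179960564, minus strand) was 0.821, 0.715 and 0.790 RPKM in Scx-/- and 1.05, 0.529 and 1.18 RPKM in Scx+/+. The Scx-/- libraries lay between the Scx+/+ libraries, with a log2 fold change of -0.16 (95% interval -1.08 to 0.77) that turned to 0.039 without Scx+/+ replicate 3 and to 0.012 after removal of the dependence on exon length and GC.

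Neither beta chain was called. Lamb1 (ENSMUSG00000002900, chromosome 12 from 31950099 to 32014509, plus strand) was 45.2, 42.3 and 28.5 RPKM in Scx-/- and 51.5, 36.6 and 48.1 RPKM in Scx+/+, a log2 fold change of -0.24 (95% interval -0.75 to 0.26). Left-out libraries moved the Lamb1 value to between -0.39 (without Scx+/+ replicate 2) and -0.040 (without Scx-/- replicate 3). Lamb2 (ENSMUSG00000052911, chromosome 9 from 108382193 to 108392861, plus strand) was 9.60, 6.74 and 6.86 RPKM in Scx-/- and 10.3, 6.45 and 7.46 RPKM in Scx+/+. The highest library of each genotype was replicate 1, and the Lamb2 log2 fold change of -0.05 (95% interval -0.60 to 0.50) turned to 0.035, 0.023 and 0.14 without Scx-/- replicate 2, Scx-/- replicate 3 and Scx+/+ replicate 1.

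Nid1 (ENSMUSG00000005397, chromosome 13 from 13529869 to 13604542, plus strand), the more abundant link between laminin and collagen IV, was 18.6, 20.4 and 14.7 RPKM in Scx-/- and 25.9, 18.4 and 25.9 RPKM in Scx+/+. As for Agrn and Lamc1, Scx+/+ replicates 1 and 3 were above all Scx-/- libraries and Scx+/+ replicate 2 was not. The log2 fold change was -0.38 (95% interval -0.85 to 0.09, unadjusted p = 0.0993 from limma). It was -0.42 after removal of the dependence on exon length and GC, where its unadjusted p from limma was 0.0232, and -0.25 without Scx-/- replicate 3, where p from limma was 0.284. Nid2 (ENSMUSG00000021806, chromosome 14 from 20570479 to 20631009, plus strand) was 14.9, 14.2 and 6.64 RPKM in Scx-/- and 17.5, 9.55 and 17.7 RPKM in Scx+/+. Its log2 fold change of -0.35 (95% interval -1.16 to 0.45) turned to 0.018 without Scx-/- replicate 3, the lowest library. Nid2 shares 386 bases of exon with 2700060E02Rik on the other strand, and reads of the pair cannot be told apart if the counting ignored strand.

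Whether paralogues replaced each other was asked from their shares within a library. Lama4 made up 72.4% to 80.8% of the summed RPKM of the 3 alpha chains, Lama2 17.5% to 25.2% and Lama5 1.35% to 2.40%. The share of Lama4 was 76.7% ± 4.18 (SD, n = 3) in Scx-/- and 75.0% ± 1.14 (SD, n = 3) in Scx+/+. Lamb1 made up 83.1% ± 2.87 (SD, n = 3) of the beta chains in Scx-/- and 85.0% ± 1.62 (SD, n = 3) in Scx+/+. Nid1 made up 61.1% ± 6.88 (SD, n = 3) of the nidogens in Scx-/- and 61.7% ± 3.57 (SD, n = 3) in Scx+/+. For each of the 7 shares the difference between genotypes was less than the larger of the SDs (exact permutation tests, two-sided, p = 0.4 to 1.0, adjusted p of at least 0.933). The differences were -1.70 percentage points for Lama2, 1.71 for Lama4, -0.01 for Lama5, 1.86 for Lamb2 and 0.56 for Nid2. The 6 log2 ratios between genes of like role differed between genotypes by -0.25 (Hspg2 to Agrn) to 0.19 (Lamb2 to Lamb1), in each case by less than the larger of the SDs (exact permutation test, two-sided, p = 0.4 to 1.0). Neither the shares nor the ratios could pass 0.05 in this test, whose smallest p is 0.1, so it does not show that they were alike.

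**Figure D3:**
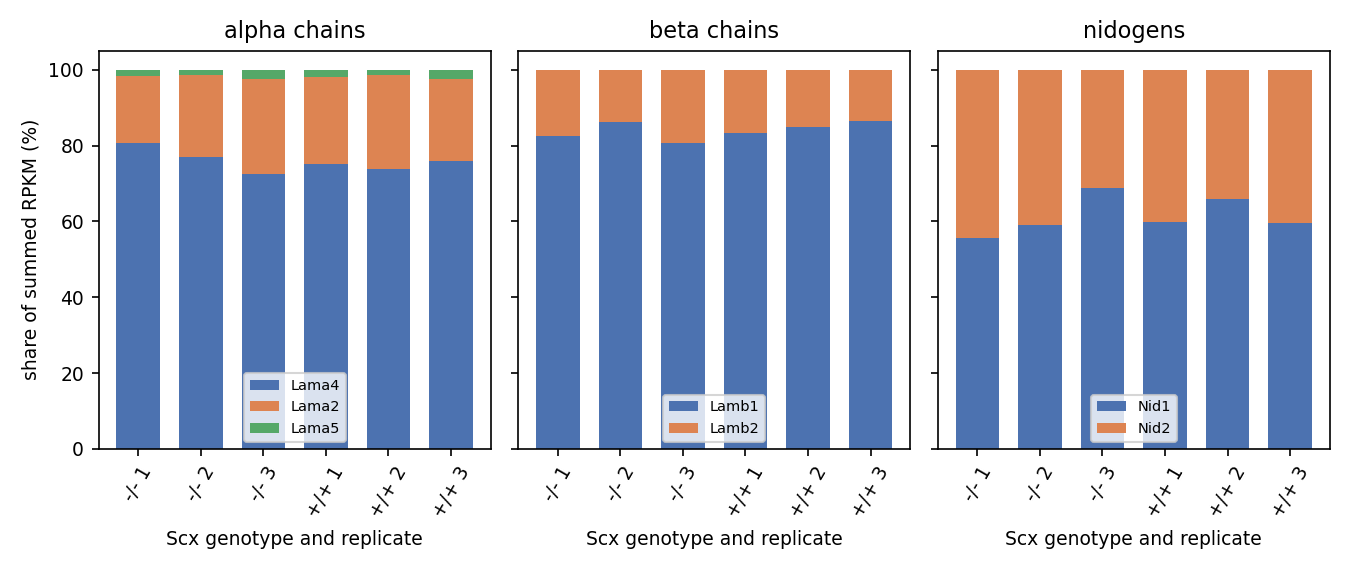
Share of the summed RPKM (%) of each alpha chain, beta chain and nidogen in every library, with bars that add to 100%. Lama4, Lamb1 and Nid1 held most of their group in all 6 libraries, and the bars of the genotypes overlapped.

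The 10 genes varied between libraries of the same genotype in a shared pattern. Each gene was centred on its mean log2(RPKM + 0.1) over the 6 libraries. The mean of the 10 centred values was 0.01, -0.07 and -0.45 in the Scx-/- and 0.38, -0.24 and 0.37 in the Scx+/+ libraries. All 10 genes were below their own mean in Scx-/- replicate 3 and all 10 above it in Scx+/+ replicate 1. In Scx+/+ replicate 2, 9 of 10 genes were below their mean, and Hspg2, at 0.10, was the exception. The pattern was not theirs alone. Pxdn, another basement membrane gene, was at -0.56 in Scx-/- replicate 3 and 0.43, -0.58 and 0.51 in Scx+/+. Not all such genes shared it, since Sparc was at 0.09 in Scx+/+ replicate 2. The spread within a genotype, as an SD of log2 values, ran from 0.17 for Lama2 to 0.58 for Nid2 and Agrn, with a median of 0.32, beside a median of 0.31 over the 13827 genes whose mean reached 1 RPKM.

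The same libraries stood apart in their cardiomyocyte markers. Their summed RPKM was 23506, 19657 and 28505 in the Scx-/- and 19954, 30926 and 17490 in the Scx+/+ libraries, highest in the libraries where the 10 genes were low. Of the 12 markers, 9 were above their own mean in Scx-/- replicate 3 and 11 in Scx+/+ replicate 2. The sum rests mainly on Myl2 and Tnnt2, and single markers went the other way, since Ttn was lowest in Scx+/+ replicate 2 at 92.4 RPKM and Nppa and Myl7 were below their means in Scx-/- replicate 3 (genes named after their values were seen). Exon lengths were 1950 bases for Myl2, 1106 for Tnnt2, 116828 for Ttn, 865 for Nppa and 590 for Myl7. Those of the 10 genes ran from 4884 (Nid2) to 14357 bases (Hspg2). The part of exon length in this contrast was not tested. All 12 markers were detected in every library. Of them, 5 had a log2 fold change below 0, beside 36.2% of all genes. Ryr2 alone was called, lower in Scx-/-, beside 1.06% of all genes called lower. Scx+/+ replicate 2 also had the lowest depth, 46429970 reads. It held 2252 values at the fill-in for low counts, beside 1088 to 1465 in the other libraries. The part of these markers and of depth in the result was not tested. With Scx-/- replicate 3 and Scx+/+ replicate 2 left out together, a choice made after seeing the data, all 10 log2 fold changes were below 0 with a median of -0.37, and Hspg2 (-0.98), Agrn (-0.75) and Nid1 (-0.41) were called. That fit, with 2 libraries a genotype, called 2.38% of all genes as lower and 6.06% as higher. In each genotype the left-out library was the one where the 10 genes had their lowest mean. The calls of that fit are therefore no independent test. Leaving out Scx+/+ replicate 2 alone gave 4 calls among the 10 (Lamc1, Nid1, Hspg2 and Agrn), all lower, beside 2.49% of all genes lower and 5.75% higher.

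**Figure D4:**
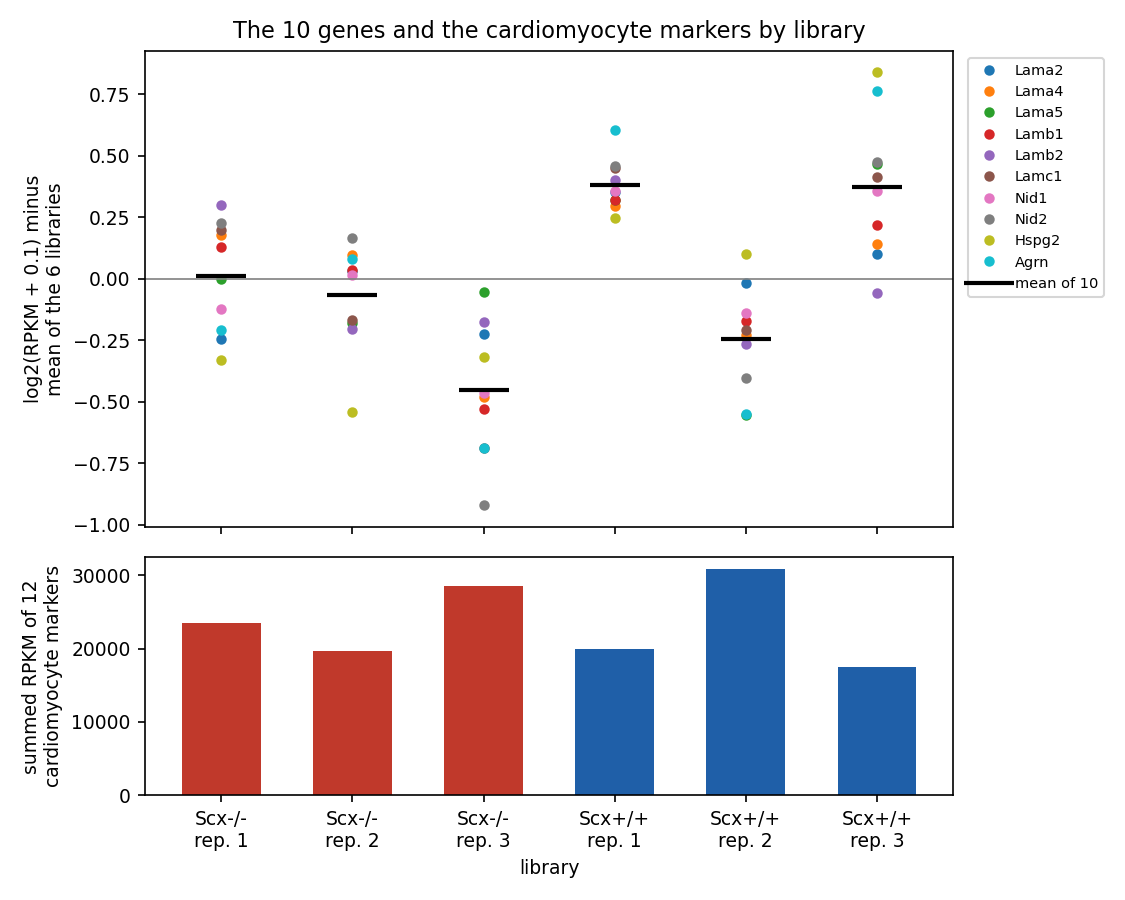
Upper panel, log2(RPKM + 0.1) of each of the 10 genes minus its mean over the 6 libraries, with the mean of the 10 as a black bar. Lower panel, summed RPKM of 12 cardiomyocyte markers in the same libraries, which was 28505 in Scx-/- replicate 3 and 30926 in Scx+/+ replicate 2, where the means of the 10 genes were -0.45 and -0.24.

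Measured against the mean of the other 9 within each library, Hspg2 was -0.38, -0.53 and 0.15 in Scx-/- and -0.15, 0.38 and 0.52 in Scx+/+ on the log2 scale, each relative to its own average. Scx-/- replicate 3 lay above Scx+/+ replicate 1, so the genotypes overlapped. The difference of -0.50 stood beside SDs of 0.36 in Scx-/- and 0.35 in Scx+/+ (n = 3 each, exact permutation test, two-sided, p = 0.2, adjusted p = 0.714 over the 10 genes). The relative level of Lama4 was 0.22 higher in Scx-/-, with SDs of 0.12 and 0.14 and the same exact permutation p = 0.2. With 3 libraries against 3 this test cannot go below 0.1, so it could not call any of the 10 genes.

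Smarca4, Ank3, 2310021P13Rik and Prdm2 were among the 5 genes whose profile over the 6 libraries was nearest to the mean of the 10, out of 13818 compared. Their root mean square difference from it was 0.0383 to 0.0516 on the log2 scale. Smarca4, a chromatin remodelling ATPase, was 9.76, 9.09 and 6.95 RPKM in Scx-/- and 13.4, 8.24 and 12.3 RPKM in Scx+/+. That it was lowest in Scx-/- replicate 3 follows from its choice by profile. None of the 4 was at an unadjusted p below 0.05 in limma.

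Scleraxis is a basic helix-loop-helix factor, a class that binds E-boxes with the letters CANNTG, and so the start regions of the genes were searched for them. RefSeq promoter windows from GRCm38.p6, with 250 bases before and 50 after the start, were found for 7 of the 10 genes, 8 windows in all since Agrn has 2. Lama4, Lamc1 and Nid2 have no entry. CANNTG, which reads the same on both strands, was in 5 of the 8 windows, beside 72.3% of all 32851 windows. CATCTG or its reverse complement CAGATG, 1 form of CANNTG, was in 2 of the 8 windows, those of Lama2 and Lamb2, beside 17.2% of all. CACCTG or CAGGTG, another form, was in 1 window, that of Lama5, with 2 matches, beside 20.2% of all. The windows of Hspg2, the gene with the largest difference, and of Lama2 and Lamb2, which hold CATCTG, are shown 5′ to 3′ along the gene with CANNTG in capitals. The same letters were found in mm9 at chr4:137024468-137024767 on the plus strand for Hspg2, at chr10:27336699-27336998 on the minus strand for Lama2 and at chr9:108381943-108382242 on the plus strand for Lamb2.
Hspg2: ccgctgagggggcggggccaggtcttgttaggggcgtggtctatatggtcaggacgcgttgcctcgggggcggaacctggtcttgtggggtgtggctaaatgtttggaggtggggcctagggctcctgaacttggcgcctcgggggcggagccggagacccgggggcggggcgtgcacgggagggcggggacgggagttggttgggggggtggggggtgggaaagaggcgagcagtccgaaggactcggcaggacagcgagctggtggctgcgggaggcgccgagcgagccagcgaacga
Lama2: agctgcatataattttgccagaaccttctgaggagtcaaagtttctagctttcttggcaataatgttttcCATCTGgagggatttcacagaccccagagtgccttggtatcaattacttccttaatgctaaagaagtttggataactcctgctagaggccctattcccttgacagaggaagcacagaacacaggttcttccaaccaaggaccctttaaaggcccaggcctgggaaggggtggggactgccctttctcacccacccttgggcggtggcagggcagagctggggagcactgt
Lamb2: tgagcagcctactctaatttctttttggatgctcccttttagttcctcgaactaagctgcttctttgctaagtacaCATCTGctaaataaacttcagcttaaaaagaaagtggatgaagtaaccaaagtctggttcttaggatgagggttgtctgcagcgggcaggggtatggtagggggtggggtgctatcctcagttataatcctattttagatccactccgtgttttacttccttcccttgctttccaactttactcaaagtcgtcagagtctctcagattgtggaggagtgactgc
The Hspg2 window has no match and is 70.3% G or C, while CATCTG starts 180 bases before the start of Lama2 and 174 bases before that of Lamb2. A match is a run of letters and not a bound site.

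Other genes of the basement membrane and of laminin binding were read from the same fit, where 1.06% of all genes were called lower and 2.82% higher. Of 5 other laminin chains 3 were in the table, with 0 called and a median log2 fold change of -0.14. Of 8 genes for collagens IV, XV and XVIII 6 were in the table, with a median of -0.22 for the list. Col4a1 and Col4a2, the main chains of the collagen IV network, were called lower. Their log2 fold changes were -0.58 and -0.57 (unadjusted p = 0.00552 and 0.00726, adjusted p = 0.967 for each, from limma). Both calls were made in all 6 fits that leave out a library. Col4a1 was 36.4, 31.9 and 31.3 RPKM in Scx-/- and 50.5, 53.8 and 44.5 RPKM in Scx+/+. Unlike 9 of the 10 genes, Col4a1 was not low in Scx+/+ replicate 2. The list was mixed in that library. On centred log2 values Col4a2 (0.32) and Col15a1 (0.23) were above their means, and Col4a6 (-1.15), Col18a1 (-0.71) and Col4a5 (-0.07) below.

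Among 15 measured other basement membrane proteins, 1 was called, Smoc1, a secreted calcium-binding protein, at 0.590, 0.722 and 0.541 RPKM in Scx-/- and 1.23, 1.10 and 1.38 RPKM in Scx+/+. The most abundant, Sparc, a collagen-binding protein, was not called (log2 fold change 0.068), and the list had a median of -0.05. The next list, of 14 measured genes, held receptors of laminin and agrin and also proteins of the dystrophin complex that holds dystroglycan. The latter, such as Dmd and Utrn, are not receptors themselves. In this list 1 gene was called, Dag1, which encodes dystroglycan. Dag1 was 14.5, 11.5 and 10.8 RPKM in Scx-/- and 17.9, 14.6 and 19.2 RPKM in Scx+/+, so that the genotypes did not overlap by a narrow margin, with a log2 fold change of -0.49 (95% interval -0.93 to -0.05, unadjusted p = 0.0319 and adjusted p = 0.967 from limma). The call of Dag1 was made in 2 of the 6 fits that leave out a library, those without Scx-/- replicate 1 and without Scx+/+ replicate 2, at log2 fold changes of -0.62 to -0.40 over the 6, whereas that of Smoc1 was made in all 6. Itgb1, the integrin beta chain shared by most laminin receptors, was the most abundant gene of this list, with a log2 fold change of 0.22 and no call. The median of the whole list, dystrophin complex genes included, was 0.01.

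Genes that add sugars were measured next. None of 9 genes for dystroglycan glycosylation was called (median 0.07), nor any of 19 for the synthesis and editing of the heparan sulfate carried by perlecan and agrin (median 0.01). The most abundant of these lists, B3gnt1 and Sulf1, had log2 fold changes of 0.18 and 0.30. Of 13 proteases and inhibitors acting on basement membrane 1 was called, Htra1, a secreted serine protease, at 10.2, 15.1 and 13.1 RPKM in Scx-/- and 7.43, 9.37 and 9.58 RPKM in Scx+/+, with higher levels in Scx-/-. The call of Htra1 was lost without Scx-/- replicate 2, Scx-/- replicate 3 or Scx+/+ replicate 1, where its log2 fold change was at least 0.40. The most abundant, Ctsl, a lysosomal cysteine protease, was not called (log2 fold change 0.17), and the list had a median of 0.15.

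**Figure D5:**
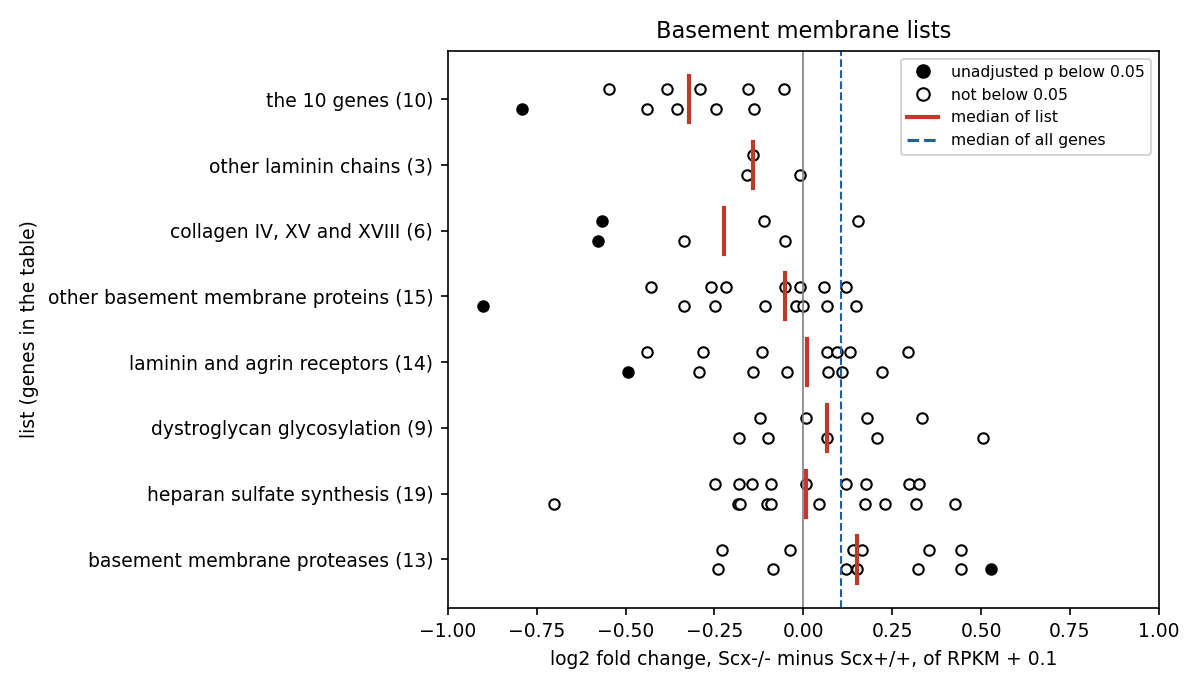
Log2 fold change of RPKM + 0.1, Scx-/- minus Scx+/+, of the measured genes of each list, with the number of genes in brackets. Filled points are at an unadjusted p below 0.05, red bars are list medians, and the dashed line is the median of all genes. The 10 genes had the lowest median, -0.32, and the proteases the highest, 0.15.

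Markers of other cell types are given beside these values. Over all genes, 1.06% were called lower and 2.82% higher, and the median log2 fold change was 0.10. None of 12 endothelial and endocardial markers was called (median log2 fold change -0.14), and their summed RPKM was 153 to 185 in Scx-/- and 155 to 179 in Scx+/+. Of the 12, 7 had a log2 fold change below 0, beside 36.2% of all genes, with a range of -0.42 (Nfatc1) to 0.30 (Emcn). Pecam1, the most abundant of them, had a log2 fold change of 0.025. In the list of 11 valve mesenchyme markers (median 0.15), Tcf21 alone was called higher, and this gene is not specific to valve mesenchyme. Upk1b and Aldh1a2 were called higher among 8 epicardial markers (median 0.37). Mlana and Dct were called higher among 5 melanocyte markers (median 0.26), with all 3 Scx+/+ values of Mlana set to the fill-in for low counts. Cd68 was called higher among 8 macrophage markers (median 0.24). None was called among 6 smooth muscle markers (median 0.21), 4 Schwann cell and neural markers (median 0.27) and 8 erythroid markers (median 0.25), and the median of the cardiomyocyte markers was 0.08. Sox10, which marks Schwann cells and their precursors, is not in the table. With a library left out, Mlana was called in 6 of 6 fits and the other called markers, Ryr2 included, in 1 to 3 of 6. Since the Scx+/+ values of Mlana are all the fill-in, leaving out a Scx+/+ library could not change their mean. The part of these cell types in the levels of the basement membrane genes was not tested.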

How the data were processed

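Reads were aligned by the authors to mm9 with TopHat 1.4.1 (per the labels), counted over Ensembl exons with easyRNASeq and deposited as RPKM, with low values replaced by a common fill-in value (0.0949 RPKM). The strandedness of the counting is not given in the sources used here. Columns were matched to samples by their labels, and genes to symbols, positions and exon lengths in the GENCODE annotation of mm9 (18695 of 18810 identifiers). Reads were recovered from RPKM and exon length, whole within 0.1 read for 98.45% to 98.57% of values under 1000 reads, and no count test was run.

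Scx-/- and Scx+/+ (n = 3 each) were compared on log2(RPKM + 0.1) by limma 3.58.1 (R 4.3.3) with a trend on intensity and without covariates. P-values were adjusted by Benjamini-Hochberg over all genes, and genes were called at an unadjusted p below 0.05, the threshold of the paper. Fold changes on that scale understate the change of low genes. Shares, ratios, role sums and levels relative to other genes were compared by exact permutation in Python 3.11.15. The 10 genes, the lists and the tests were chosen with earlier results of these data known. The comparison of neighbouring levels, the level relative to the other 9 genes and the fit with 2 libraries per genotype were chosen after seeing the data. Named genes are the 10 members, from each list the called genes and, for most lists, the most abundant one, Scx and the 5 nearest profiles; some of these are not reported here. The alternatives were pseudocounts of 0.01 and 1, a mean of at least 1 RPKM, limma without a trend, an unmoderated linear model, quantile normalization, library medians set to 0, removal of the dependence on exon length and GC by splines (5 degrees of freedom each), a replicate block and each library left out. The limma step was tested on simulated data.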

Additional observations from a re-analysis of the deposited data

How the results depend on the processing

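The count of called members among the 10 was 1 as deposited and with pseudocounts of 0.01 and 1, with a mean of at least 1 RPKM (9 members tested), without a trend, in the unmoderated model and after quantile normalization. It was 2 with library medians set to 0, 2 after removal of the dependence on exon length and GC, 0 to 4 with each library left out, and 3 of 10 with 2 libraries per genotype, where 1587 genes were called. The count over all genes was 539 to 1549 with each library left out, lowest without Scx+/+ replicate 3 and highest without Scx+/+ replicate 2, and 731 with all of them. The correlation of deviations from the genotype mean was 0.092, -0.22 and -0.188 between same-numbered libraries, and -0.26 to 0.32 between the others. Deviations from a mean of 3 libraries sum to 0, so these values cannot decide whether replicate numbers pair the libraries. With the replicate block, 1 member and 573 genes were called. The block changed the call of none of the 10 genes.

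Some differences changed sign. The log2 fold change of Lama5 was 0.012 after removal of the dependence on exon length and GC. With a library left out, the fold changes that changed sign reached 0.067 for Lama4, 0.039 for Lama5, 0.14 for Lamb2 and 0.018 for Nid2 at most, and were at least -0.29, -0.47, -0.22 and -0.65. The difference in the log2 ratio of Lama5 to Lama4 was 0.039 with a pseudocount of 1, 0.0465 after quantile normalization and 0.10 after that removal. With each library left out the ratio differences were -0.24 to 0.14 for Lama5 to Lama4, -0.14 to 0.26 for Nid2 to Nid1, -0.021 to 0.32 for Lama4 to Lama2, -0.10 to 0.35 for Lama5 to Lama2 and -0.49 to 0.017 for Hspg2 to Agrn. The share differences were then -3.61 to 0.25 percentage points for Lama2, -0.31 to 3.87 for Lama4, -0.28 to 0.25 for Lama5 and -2.22 to 4.40 for Nid2. That of Lama5 was 0.12 after quantile normalization and 0.19 after that removal. The median of the list of laminin and agrin receptors and dystrophin complex genes was -0.10 with library medians set to 0. It was -0.15 to 0.043 with each library left out. The cause of these changes was not tested. With 3 libraries a genotype, the 95% intervals of the 10 genes reached from 0.375 to 1.71 of the Scx+/+ level.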
